A study of Mus musculus with 30 samples.

Results

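Microglia sorted from Atg7 knockout (KO) mice were compared between young mice 21 days after induction of experimental autoimmune encephalomyelitis (EAE), a mouse model of multiple sclerosis, and young naive mice of the same genotype. The comparison used 8 of the 30 libraries of the series, taken by their titles: 4 from day 21 of EAE (day 21 KO) and 4 from naive mice (naive KO). Every one of the 8 libraries carried Atg7fl/fl and Cx3cr1CreERT on the C57BL/6 background, so naive KO is a control for the disease and not for the deletion. Tamoxifen, which switches on the Cre recombinase, was given as 3 doses of 4 mg spaced by 48 h. EAE was started at least 18 days after tamoxifen with recombinant mouse myelin oligodendrocyte glycoprotein (amino acids 1 to 125) under the skin and pertussis toxin into the peritoneum. The study also profiled WT microglia (Atg7wt/wt, Cx3cr1CreERT2), of which the 3 day 21 and 4 naive libraries serve here as a second response to EAE, and further groups at day 35 and in old mice. Cells were sorted from the central nervous system as live CD11b+ CD45 intermediate Ly6G- and/or eYFP+. The protocol states that material from females and males was mixed in equal parts, which the sex-linked genes below do not bear out for every library. The labels do not say that each library came from separate animals, so the p-values below measure the spread between libraries, which may be partly technical.

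Microglia are the resident macrophages of the brain and spinal cord. In the healthy tissue they keep a set of homeostatic genes active under TGF-beta, and in inflamed tissue they answer interferons, present antigen and take up myelin debris. Atg7 encodes the E1-like enzyme that drives both ubiquitin-like conjugation systems of autophagy, which join LC3 to membrane lipid and Atg12 to Atg5. Cre from the Cx3cr1 locus is active in microglia and also in border macrophages and some monocytes. In RNA from sorted populations, fewer cells of a type and less RNA per cell cannot be told apart.

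The 8 libraries held 5572534 to 9893590 counts each. The authors' EAE score was 3 in 3 day 21 libraries, 2.75 in the other and 0 in all naive libraries. RNA integrity numbers were 9.41 ± 0.371 (SD, n = 4) at day 21 and 9.6 ± 0.294 in naive libraries, and mitochondrial counts made up 8.77% ± 0.339 and 3.38% ± 1.14. Naive KO 4 stood apart from its group: its chi-square per gene against the other naive libraries was 28.6 to 33.6, whereas every other pair within a group gave 3.98 to 11.8. The first principal component held 60.8% of the variance and separated day 21 from naive, and the second, with 15.9%, separated naive KO 4 from the other 7 libraries. Xist, which is expressed from the inactive X of females, ran from 92.2 to 1426 CPM in naive libraries and from 70.1 to 773.7 CPM at day 21. This is a wide range within both groups for libraries described as equal mixtures of the sexes. Naive KO 1 had 92.2 CPM of Xist and 175 CPM of summed Y-linked genes, and naive KO 3 had 1426 and 14.2 CPM. At day 21 the Y-linked sums were 160 to 218 CPM. The sample names of naive KO 1 and naive KO 3 carry 1 animal number each, and those of all day 21 libraries 2.

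Summed markers of microglia and of other cells separated the groups in these sorts. Summed microglia-defining markers (10 genes, none at 0 in any library) were 24871 to 26493 CPM in naive libraries and 11433 to 12186 CPM at day 21. Summed monocyte markers (13 genes, none at 0) were 473, 504.9, 555 and 40.6 CPM in naive libraries and 2317 to 3179.5 CPM at day 21. Neutrophil markers (17 genes) were 3180.3, 3046, 2888 and 646 CPM in naive libraries against 485 to 608 CPM at day 21. At day 21 Ly6g, Mpo and Stfa2l1 were at 0 in some libraries. The sorts were gated as Ly6G- and/or eYFP+. Csf3r, which microglia also express, made up 475 of the mean 558 CPM at day 21 and 513 of 2440 CPM in naive libraries. T and NK cell markers (12 genes; Cd3e, Cd3d and Cd3g were at 0 in some naive libraries) were 1.47 to 13.5 CPM in naive libraries and 24.2 to 29.7 CPM at day 21, and border macrophage markers (11 genes, Cd209f at 0 in all day 21 libraries) 38.4 to 333.7 and 408 to 520.5 CPM, a higher sum in a list whose median log2 fold change was -1. Each of these sums separated the groups completely, with the smallest p that 4 against 4 libraries allow (two-sided exact permutation test, p = 0.0286, adjusted p = 0.0572 over 16 measures), and none of the 16 measures passed 0.05 after adjustment. Without naive KO 4, 10 of the 16 passed. The part that these other cells took in the gene differences below was not tested.

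**Figure D1:**
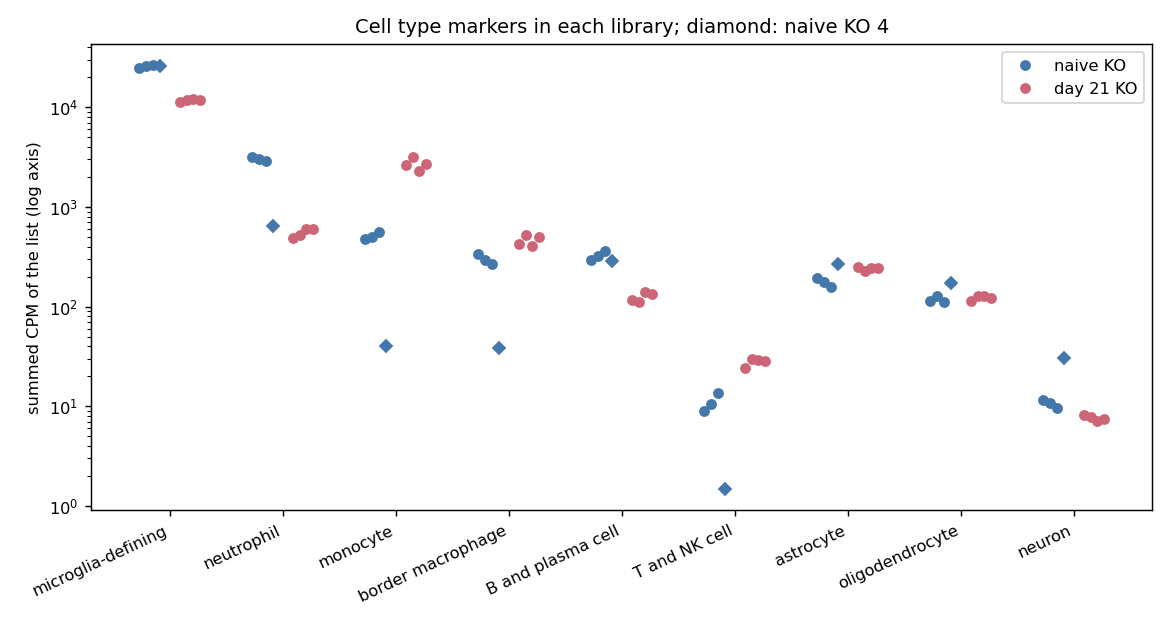
Summed CPM (log axis) of 9 fixed marker lists in each of the 4 naive KO libraries (blue) and 4 day 21 KO libraries (red); the diamond is naive KO 4. Microglia-defining markers are lower and monocyte markers higher in all day 21 libraries, and naive KO 4 sits below the other naive libraries for neutrophil, monocyte, border macrophage and T and NK cell markers.

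The targeted gene was examined first. Atg7 (chr6:114643097-114860614 on GRCm38) had 16.8, 20.7, 31.8 and 11.4 CPM in the naive libraries and 31.7, 31, 31.7 and 36.9 CPM at day 21. The groups overlapped, and the difference did not pass the test (log2 fold change 0.70 ± 0.30 (SE), adjusted p = 0.0601, edgeR quasi-likelihood). WT libraries had 31.6 ± 6.32 CPM (SD, n = 4) when naive and 23.2 ± 3.02 CPM (n = 3) at day 21. These are counts over the whole gene, and the labels do not say which exons the floxed allele removes, so the values do not check the deletion. Cx3cr1, the fractalkine receptor and the locus that holds Cre, had 118, 129.5, 136.4 and 292 CPM in the naive libraries and 550.2, 237, 342 and 91 CPM at day 21. Its spread within groups was as wide as the gap between them (log2 fold change 0.85 ± 0.44 (SE), adjusted p = 0.12), and naive WT libraries held 2574 ± 1149 CPM.

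EAE at day 21 went with a broad difference in the Atg7 KO transcriptome. Of 13880 genes tested, 3123 were higher (22.5%) and 3149 lower (22.7%) at day 21 (edgeR quasi-likelihood test on all 30 libraries in 8 groups, Benjamini-Hochberg adjusted p under 0.05). Of these, 1564 rose and 911 fell by at least 2-fold, and the libraries of the groups did not overlap for 44.1% of all genes tested. The median log2 fold change over all genes tested was 0.01. With 45.2% of the genes called, a count within a gene group is read below against these percentages. A count near them is not read as a result about the group.

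**Figure D2:**
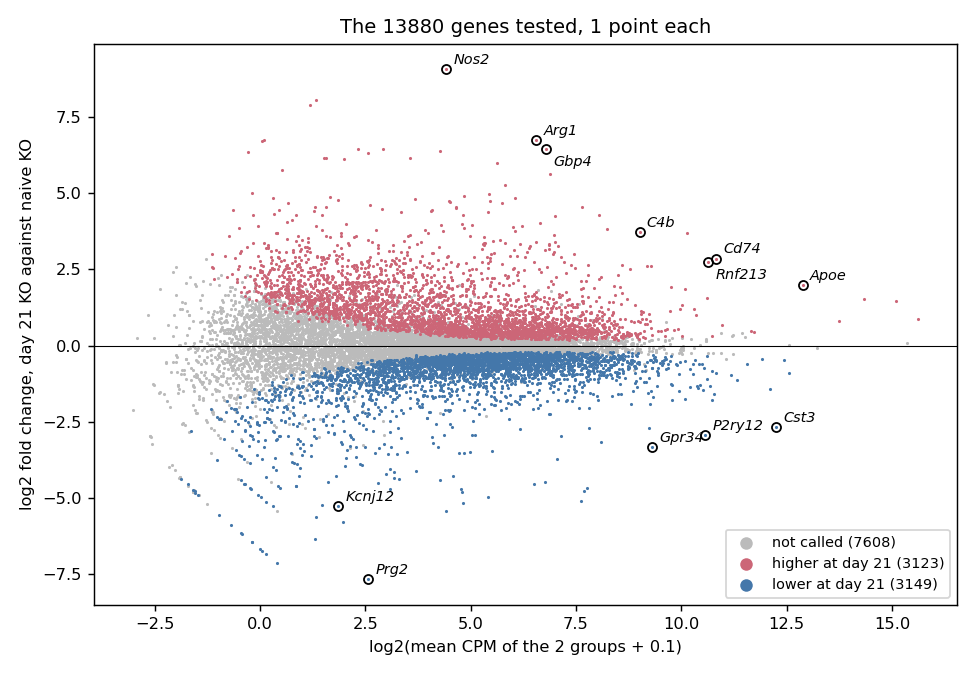
Log2 fold change of day 21 KO against naive KO (y axis) by mean level on a log2 scale (x axis) for the 13880 genes tested; red points are the 3123 called higher, blue the 3149 called lower and grey the rest, and circles mark named genes. Calls spread over the whole range of levels, with P2ry12, Gpr34 and Cst3 among abundant genes that fell and Apoe, Cd74, Rnf213 and C4b among abundant genes that rose.

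The 10 genes with the largest increases among those above 5 CPM were 2 enzymes that use arginine, 3 guanylate-binding GTPases, a cytokine, a cytokine receptor chain, a complement factor and 2 serpins. Nos2, the inducible nitric oxide synthase, had 0, 0.0967, 0.129 and 0 CPM in the naive libraries and 53.7, 47.1, 30.2 and 39.6 CPM at day 21. Only 2 counts lay behind the naive value, and the ratio of the groups was 682 (95% counting interval 188 to 5641) with an adjusted p of 3.45e-06. Arg1, the arginase that competes with Nos2 for arginine, had 0.273, 3.09, 3.09 and 0 CPM in the naive libraries and 176.96, 234, 155 and 181 CPM at day 21 (log2 fold change 6.73 ± 1.46 (SE), adjusted p = 0.000718). Both genes were lower in every naive library than in any day 21 library. Ifnb1, which encodes interferon beta, had 0, 0.0967, 0.257 and 0 CPM in the naive libraries and 13.3, 7.05, 12.9 and 5.48 CPM at day 21, a ratio of 105 (95% counting interval 35.6 to 513). Gbp4, a guanylate-binding GTPase, rose from 2.49 ± 1.35 to 219 ± 14.8 CPM (log2 fold change 6.44 ± 0.55 (SE), adjusted p = 4.18e-09). Cfb, a complement factor of the alternative pathway, Il12rb1, an interleukin 12 receptor chain, Serpina3f, a protease inhibitor, and Gbp6 followed with log2 fold changes of 6.45, 6.40, 6.32 and 6.17. The ratios of Gbp2b and Serping1, each with 2 or 3 naive counts, were 90.4 (95% counting interval 24.6 to 754) and 81.6 (95% counting interval 27.5 to 399).

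The largest decreases fell into 2 kinds. Genes of granulocytes were one. Prg2 of eosinophils had 20.9, 15.5, 9.52 and 0.733 CPM in the naive libraries and 0.157, 0, 0 and 0 CPM at day 21. Its naive to day 21 ratio was 305.7 (95% counting interval 54.5 to 12104), resting on 1 count at day 21. The neutrophil genes Ltf, Ngp, Camp, S100a9 and Lcn2 had log2 fold changes of -5.11, -4.77, -4.71, -4.67 and -4.55. For Ltf the values were 553, 500.3, 442 and 22.3 CPM in the naive libraries and 4.4, 7.42, 11.7 and 20 CPM at day 21, so that naive KO 4 lay next to the day 21 libraries. The other kind was not tied to granulocytes. Adcy8, a calcium-stimulated adenylyl cyclase, had 8.86, 13.5, 13.6 and 16.6 CPM in the naive libraries and 0.628, 0.557, 0.301 and 0.741 CPM at day 21 (log2 fold change -4.52 ± 0.43 (SE), adjusted p = 2.67e-09), and Gp9, known as a platelet glycoprotein, had 17.7, 15.6, 14.5 and 17.2 CPM in the naive libraries and 1.26, 0.557, 0.601 and 0 CPM at day 21 (log2 fold change -4.72 ± 0.50 (SE), adjusted p = 2.23e-08). Kcnj12, a potassium channel, had 9, 8.99, 8.62 and 0.88 CPM in the naive libraries and 0.157, 0.557, 0 and 0 CPM at day 21 (log2 fold change -5.27 ± 0.82 (SE), adjusted p = 8.33e-06), with naive KO 4 far below the other naive libraries.

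**Figure D3:**
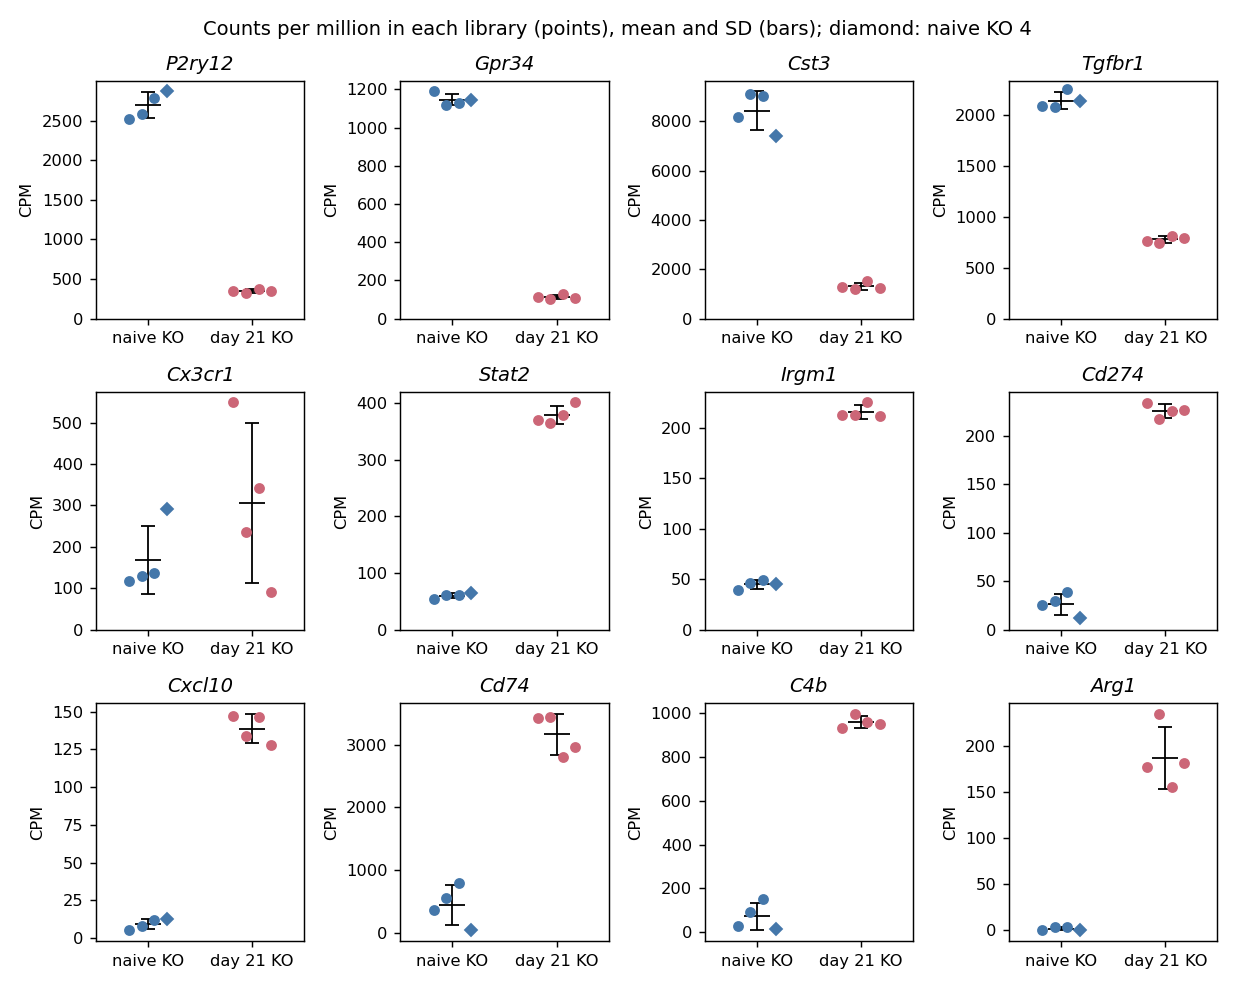
CPM of 12 genes in each library (points; diamond, naive KO 4), with the mean and SD of the 4 libraries of each group; each axis starts at or below 0. Groups separate for the genes shown other than Cx3cr1, whose naive KO 4 value of 291.5 CPM lies inside the day 21 range of 91 to 550.2 CPM.

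Homeostatic microglial genes fell together. Of 24 on the list, 21 fell and none rose, beside 22.7% lower and 22.5% higher over all genes, and their median log2 fold change was -1.42. P2ry12, the purinergic receptor that steers microglial processes, had 2525, 2584, 2791 and 2872 CPM in the naive libraries and 349.7, 324.1, 374 and 347 CPM at day 21 (log2 fold change -2.95 ± 0.25 (SE), adjusted p = 8.69e-10). Gpr34, a lysophosphatidylserine receptor, had 1189, 1119, 1131 and 1147 CPM in the naive libraries and 113, 103.3, 130.4 and 109 CPM at day 21 (log2 fold change -3.33 ± 0.24 (SE), adjusted p = 5.08e-11). The highest day 21 library of each lay far below its lowest naive library. Fcrls, an Fc receptor-like gene, Slc2a5, a fructose transporter, Sparc, a matricellular protein, and Selplg, the P-selectin ligand, had log2 fold changes of -2.69, -2.72, -1.78 and -1.60. Csf1r, the receptor for the survival factors of microglia, fell less, from 7805 ± 342 to 4196 ± 93.8 CPM (-0.90, adjusted p = 0.000245). The members that did not pass were Cx3cr1, Mertk and Crybb1. Outside the list, Cst3, the secreted protease inhibitor cystatin C, fell from 8426 ± 799 to 1317 ± 145 CPM (-2.68). Without naive KO 4 the count was 21 lower with a median of -1.4, and Cx3cr1 was then called higher.

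Genes of TGF-beta signalling, the pathway that maintains the homeostatic state, pointed the same way. Of 14 on the list tested, 8 fell and none rose (median -0.45), beside 22.7% lower and 22.5% higher over all genes. The 8 include Bmp2k, a BMP-2-inducible kinase that is not a core part of this pathway. The type I receptor Tgfbr1 had 2086, 2082, 2259 and 2138 CPM in the naive libraries and 764, 739, 814 and 796 CPM at day 21 (log2 fold change -1.46 ± 0.15 (SE), adjusted p = 8.21e-09). Smad3, its signal transducer, fell from 180.5 ± 25.6 to 83.6 ± 8.71 CPM (-1.11, adjusted p = 1.49e-07), and the ligand gene Tgfb1 from 361 ± 14.3 to 187 ± 17.9 CPM (-0.95, adjusted p = 2.74e-06). No library of 1 group reached the range of the other for these 3 genes.

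The disease-associated microglia list, genes that rise in microglia near plaques and lesions, was divided. Of 26 tested, 11 rose and 8 fell, beside 22.5% higher and 22.7% lower over all genes. The median of the list was 0.38. Apoe, the lipoprotein ligand, had 3289.9, 3894, 4361 and 624 CPM in the naive libraries and 10532, 13279.7, 11596 and 12664 CPM at day 21 (log2 fold change 1.98 ± 0.52 (SE), adjusted p = 0.0035), with naive KO 4 lowest. Axl, a receptor for apoptotic cells, rose from 139 ± 80.4 to 537 ± 35.8 CPM (1.95), the cystatin Cst7 from 17 ± 11.9 to 72.1 ± 13.7 CPM (2.07), the growth factor Csf1 from 42.6 ± 11.7 to 138.1 ± 2.86 CPM (1.70) and Ch25h, the cholesterol 25-hydroxylase, from 2.47 ± 1.76 to 16.1 ± 1.3 CPM (2.69). Trem2, the lipid-sensing receptor at the head of this programme, had 769, 770.3, 663 and 707 CPM in the naive libraries and 356, 379, 419 and 459 CPM at day 21 and fell (log2 fold change -0.85 ± 0.18 (SE), adjusted p = 0.000277). Its adaptor Tyrobp was also among those that fell (-0.63), as were the tetraspanin Cd9 (-0.94), the pyrophosphate transporter Ank (-1.48) and the inhibitor Timp2 (-0.89). Without naive KO 4, 9 rose and 9 fell.

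Interferon-response genes rose almost without exception. Of 32 type I interferon response genes, 31 rose and none fell (median 2.19); Irf9 was the one that did not pass. The summed level of the list was 632.6 to 842.9 CPM in naive libraries and 3556 to 3733 CPM at day 21. Stat2, the transcription factor that carries the type I signal, had 54.1, 60.8, 61.2 and 64.2 CPM in the naive libraries and 370.4, 365, 379 and 402 CPM at day 21 (log2 fold change 2.66 ± 0.15 (SE), adjusted p = 1.87e-13), so that all 4 libraries of each group lay within a narrow band. The antiviral GTPase Mx1 rose from 16 ± 4.57 to 154.4 ± 4.81 CPM (3.27) and the ubiquitin ligase Herc6 from 42.8 ± 1.4 to 145 ± 10.6 CPM (1.76). Rnf213, a large ubiquitin ligase that interferon induces, was far more abundant, with 315.8, 376, 473 and 500.4 CPM in the naive libraries and 2547, 2845, 2790.1 and 2888 CPM at day 21 (log2 fold change 2.73 ± 0.18 (SE), adjusted p = 1.78e-12).

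Interferon-gamma induced GTPases and their regulators followed, with 16 of 20 higher and 3 lower (median 2.22). Irgm1, a GTPase that acts on pathogen vacuoles and on autophagy, had 39, 46.2, 49.2 and 45.5 CPM in the naive libraries and 212.3, 212.4, 226 and 211.3 CPM at day 21 (log2 fold change 2.26 ± 0.11 (SE), adjusted p = 1.99e-14), the lowest adjusted p of the list. Gbp7 and Gbp3 of the chromosome 3 cluster rose by 2.17 and 2.03 on the log2 scale, and the regulator Irf1 by 1.87. Reads of Gbp genes may be split between near-identical copies, which makes single Gbp values uncertain. The 3 members that fell were Ifngr1 and Ifngr2, the receptor chains for interferon gamma, and Jak1, a kinase of that receptor. Ifngr1 went from 979.6 ± 105 to 391 ± 29.8 CPM (-1.33, adjusted p = 2.17e-06), and Ifngr2 and Jak1 had log2 fold changes of -0.27 and -0.34. Jak2, the other kinase of the receptor, rose (0.66).

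The promoters of these genes were searched for the letters of 2 interferon elements on both strands, in RefSeq windows on GRCm38.p6 that run from 250 bases before to 50 after each annotated start. The ISRE-like motif, GAAA then NN then GAAA with N any base, is known as a site of IRF factors and of the complex formed after type I interferon, and the GAS-like motif TTCNNNGAA as the site bound after interferon gamma. Of the type I list, 22 of 32 genes had a window and 13 of these (59.1%) held the ISRE-like motif. Of the interferon-gamma list, 14 of 20 had a window, 8 (57.1%) held the ISRE-like motif and 6 (42.9%) the GAS-like one. Over the 27025 genes with a window, 3.99% held the first and 9.55% the second. Among tested genes the ISRE-like motif was found in 7.15% of those called higher, 3.01% of those called lower and 3.34% of those not called. None of the 18 homeostatic genes with a window held it, but so small a set cannot be told apart from the 4.07% of all tested genes with a window. The stretches below are examples picked by hand from interferon-linked genes named in the text, all of them called higher at day 21. Each lies in a window with a match before the start. They do not stand for all named genes: B2m, named below as not passing the test, also held the ISRE-like motif in its window. Each has 60 bases and ends at or before the start, is written 5' to 3' on the gene's strand, and has in capitals every base of a match on either strand (ISRE-like for the first 6, GAS-like for Irf1).
Stat2 (chr10:128270251-128270310, plus strand): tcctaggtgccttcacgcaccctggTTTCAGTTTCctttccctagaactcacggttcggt
Irgm1 (chr11:48871421-48871480, minus strand): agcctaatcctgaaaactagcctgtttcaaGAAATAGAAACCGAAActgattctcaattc
Gbp7 (chr3:142530258-142530317, plus strand): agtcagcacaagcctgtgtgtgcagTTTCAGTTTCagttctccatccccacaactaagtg
Gbp3 (chr3:142559974-142560033, plus strand): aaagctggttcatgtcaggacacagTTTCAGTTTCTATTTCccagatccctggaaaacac
Cxcl10 (chr5:92349068-92349127, minus strand): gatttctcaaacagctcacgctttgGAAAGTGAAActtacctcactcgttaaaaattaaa
H2-T23 (chr17:36032791-36032850, minus strand): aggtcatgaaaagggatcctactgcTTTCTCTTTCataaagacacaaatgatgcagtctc
Irf1 (chr11:53769899-53769958, plus strand): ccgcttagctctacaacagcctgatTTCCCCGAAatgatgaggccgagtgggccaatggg
In Irgm1 and Gbp3 the capitals hold overlapping matches. The match of Gbp7 lies 44 to 53 bases before the start, that of Irf1 82 to 90 and that of Stat2 213 to 222. A match is a description of the sequence and does not show that a factor was bound.

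Antigen presentation genes rose as well. In the class I pathway 18 of 19 rose and none fell (median 1.09), with B2m the one that did not pass. Tap1, a subunit of the peptide transporter, had 79.9, 99.2, 109 and 87.5 CPM in the naive libraries and 456, 474, 439.8 and 430.1 CPM at day 21 (log2 fold change 2.26 ± 0.14 (SE), adjusted p = 1.01e-12). The class I genes H2-Q4 and H2-T23 rose from 48.9 ± 10.8 to 257 ± 11.1 CPM (2.39) and from 90 ± 10.2 to 228 ± 5.22 CPM (1.34), with the reservation that H2-Q and H2-T genes are close copies. In the class II pathway 8 of 10 rose and none fell (median 1.08). Cd74, the invariant chain, had 359, 563, 791 and 45.3 CPM in the naive libraries and 3427, 3449, 2811 and 2969.7 CPM at day 21 (log2 fold change 2.85 ± 0.48 (SE), adjusted p = 4.9e-05). H2-Ab1 and H2-Aa, the 2 chains of the I-A molecule, rose from 174 ± 117 to 1072 ± 19.5 CPM (2.62) and from 106 ± 78.1 to 665 ± 29.1 CPM (2.64). Naive KO 4 held the lowest value of all 3 class II genes, at 45.3, 18.5 and 7.19 CPM. The thiol reductase Ifi30 was more even, with 158.2, 191, 222 and 159.99 CPM in the naive libraries and 496, 511, 457 and 485 CPM at day 21 (log2 fold change 1.42 ± 0.14 (SE), adjusted p = 2.22e-09).

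Costimulatory and checkpoint genes moved in both directions, 4 up and 4 down of 10 tested, beside 22.5% higher and 22.7% lower over all genes. Cd274, which encodes the checkpoint ligand PD-L1, had 25.2, 29.8, 38.5 and 12.5 CPM in the naive libraries and 234, 217, 225 and 227 CPM at day 21 (log2 fold change 3.08 ± 0.27 (SE), adjusted p = 2.31e-09). Cd40, the receptor for T cell help, rose from 2.37 ± 2.23 to 25.5 ± 2.68 CPM (3.40). Vsir, which encodes the checkpoint protein VISTA, had 2290.3, 2393, 2266 and 2390.3 CPM in the naive libraries and 898, 905, 962 and 962 CPM at day 21 and fell (log2 fold change -1.33 ± 0.16 (SE), adjusted p = 1.75e-07). For both Cd274 and Vsir the groups were far apart, in opposite directions.

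Chemokine genes rose in 10 of 17 cases and fell in 1 (median 1.51). Cxcl10, which recruits CXCR3-bearing T cells, had 5.18, 7.64, 11.8 and 12.5 CPM in the naive libraries and 147, 133.8, 146.5 and 127.7 CPM at day 21 (log2 fold change 3.91 ± 0.34 (SE), adjusted p = 3.85e-09). Ccl5 rose from 8.05 ± 6.48 to 121 ± 12.3 CPM (3.89), the monocyte attractant Ccl2 from 22.7 ± 3.15 to 114.4 ± 7 CPM (2.33) and Cxcl16 from 111 ± 33.3 to 332 ± 14.8 CPM (1.59). Ccl6 was the one that fell, from 111 to 79.8 CPM (-0.48, adjusted p = 0.0284), with overlapping groups, and its call was lost without naive KO 1, 2 or 3 or day 21 KO 3 (adjusted p up to 0.093). Among cytokines and effectors 12 of 17 rose and 2 fell (median 1.72). Il27, an interleukin 12 family subunit, had 1.91, 2.13, 1.42 and 1.61 CPM in the naive libraries and 10.7, 11.3, 11.3 and 10.4 CPM at day 21 (log2 fold change 2.61 ± 0.36 (SE), adjusted p = 1.15e-06). Il6 went the other way, with 9.68, 6.67, 5.53 and 8.07 CPM in the naive libraries and 3.77, 4.45, 3.61 and 1.93 CPM at day 21 (log2 fold change -1.12 ± 0.28 (SE), adjusted p = 0.0016), and no library of the groups overlapped for either gene.

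In the complement list 5 of 14 genes rose and 1 fell, beside 22.5% higher and 22.7% lower over all genes. C4b, the fourth component, had 31, 92.4, 151 and 15.8 CPM in the naive libraries and 930.4, 994, 959 and 947 CPM at day 21 (log2 fold change 3.72 ± 0.67 (SE), adjusted p = 0.000104). The 3 C1q chains, which microglia make in the healthy brain, did not pass the test. Toll-like receptor and NF-kappaB genes had 9 of 20 higher and 4 lower, among them Tlr2 (0.85) and the feedback inhibitor Tnfaip3 (0.99). Of 10 inflammasome and pyroptosis genes 6 rose and none fell. Casp4, the non-canonical caspase, went from 16.4 ± 1.27 to 41.7 ± 3.87 CPM (1.35), and its substrate Gsdmd from 106 ± 14.7 to 182 ± 15.8 CPM (0.78).

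**Figure D4:**
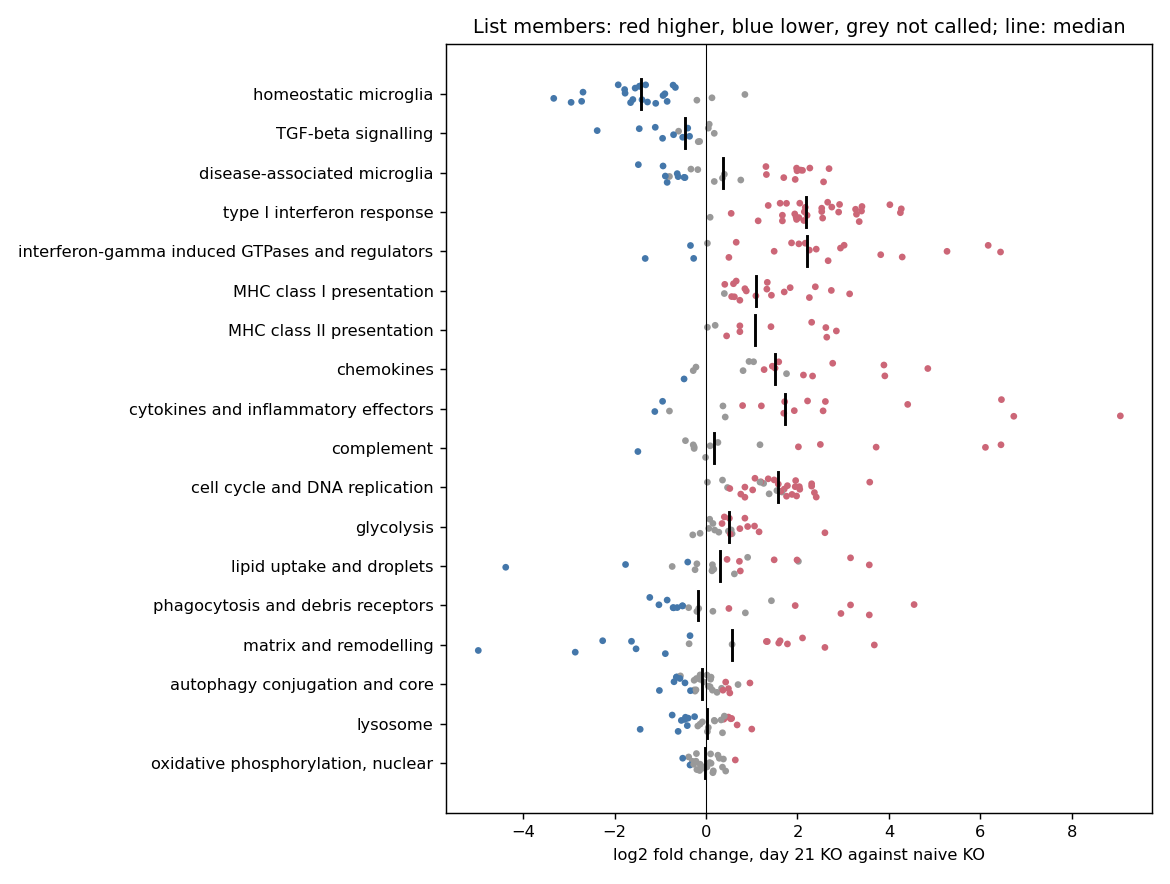
Log2 fold change of day 21 KO against naive KO for each tested member of 18 gene lists (1 point per gene; red called higher, blue called lower, grey not called), with the list median as a black line. Type I interferon response genes lie to the right of 0 with a median of 2.19, 21 of 24 homeostatic genes are called lower with a median of -1.42, and the autophagy, lysosome and nuclear oxidative phosphorylation lists centre near 0.

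Cell cycle and DNA replication genes were higher at day 21 in 25 of 33 cases and lower in none (median 1.58). E2f1, the transcription factor that opens S phase, had 3.14, 3.48, 2.32 and 2.79 CPM in the naive libraries and 9.58, 16.1, 16.7 and 16.3 CPM at day 21 (log2 fold change 2.31 ± 0.30 (SE), adjusted p = 6.16e-07). Ccne1, the cyclin of S-phase entry, had 0.818, 0.677, 0.515 and 0.88 CPM in the naive libraries and 7.38, 9.65, 8.11 and 9.93 CPM at day 21 (log2 fold change 3.58 ± 0.48 (SE), adjusted p = 9.81e-07), and every day 21 library exceeded every naive one. Bub1b of the spindle checkpoint rose from 7.11 ± 1.9 to 38 ± 7.17 CPM (2.41) and Mcm2 of the replicative helicase from 16.2 ± 2.68 to 33.1 ± 2.19 CPM (1.02). The summed level of the list was 345 to 522 CPM in naive libraries and 1057 to 1298 CPM at day 21. Without naive KO 4 the count was 17.

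Lipid-handling genes did not move as 1 block. Of 20 uptake and droplet genes 7 rose and 3 fell, beside 22.5% higher and 22.7% lower over all genes. The scavenger receptor Msr1 had 7.09, 7.15, 9.26 and 0.733 CPM in the naive libraries and 74.4, 81.4, 64.9 and 70.8 CPM at day 21 (log2 fold change 3.57 ± 0.59 (SE), adjusted p = 4.32e-05), and Cd36, a receptor for oxidised lipids, had 8.45, 10.1, 11.3 and 0.587 CPM in the naive libraries and 76, 72.5, 66 and 61.8 CPM at day 21 (log2 fold change 3.16 ± 0.46 (SE), adjusted p = 6.57e-06). Plin2, the coat protein of lipid droplets, rose from 26.2 ± 6.47 to 73.9 ± 1.57 CPM (1.49). Mgll, the monoacylglycerol lipase that degrades an endocannabinoid, had 37.4, 39.7, 38.5 and 48 CPM in the naive libraries and 12.2, 7.98, 14 and 13.8 CPM at day 21 and fell (log2 fold change -1.76 ± 0.17 (SE), adjusted p = 2.68e-09). Msr1 and Cd36 were lowest in naive KO 4, which also had the lowest monocyte marker sum, and Mgll was highest there. A link between these values was not tested. Among cholesterol efflux and LXR genes 8 of 20 rose and 4 fell. Apoc2, the cofactor of lipoprotein lipase, had 1.09, 2.8, 1.8 and 0.293 CPM in the naive libraries and 49, 44, 38.8 and 41 CPM at day 21 (log2 fold change 4.76 ± 0.66 (SE), adjusted p = 3.53e-06), and Nr1h3, which encodes LXR alpha, rose from 1.47 ± 0.672 to 8.17 ± 3.18 CPM (2.48). Mylip, an LXR-induced ubiquitin ligase, fell from 506 ± 49.7 to 282 ± 23.6 CPM (-0.84). Of 19 genes on the sterol synthesis list 4 fell and 1 rose.

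Glycolysis genes rose in 10 of 20 cases and fell in none (median 0.50). Ldha, which makes lactate, had 53.6, 58.5, 55.5 and 54.8 CPM in the naive libraries and 92.3, 106, 98.4 and 106 CPM at day 21 (log2 fold change 0.85 ± 0.16 (SE), adjusted p = 7.34e-05), Hk3, a hexokinase, rose from 113 ± 5.33 to 211.4 ± 4.34 CPM (0.91) and Tpi1 from 29.4 ± 6.35 to 65.9 ± 4.09 CPM (1.16). Nuclear genes of oxidative phosphorylation showed few calls, with 1 of 25 higher and 2 lower and a median of -0.03. Mitochondrially encoded transcripts rose in 7 of 8 tested. mt-Co1, a cytochrome oxidase subunit, had 526, 612, 881 and 1132 CPM in the naive libraries and 2401, 2435, 2166 and 2361 CPM at day 21 (log2 fold change 1.57 ± 0.24 (SE), adjusted p = 8.15e-06), and the ribosomal RNAs mt-Rnr2 and mt-Rnr1 rose by 1.46 and 1.53 on the log2 scale and made up most of the mitochondrial share. Antioxidant genes under NRF2 had 7 of 13 higher, among them the ferritin heavy chain Fth1, from 755 ± 174 to 1753 ± 189 CPM (1.21), and the thioredoxin reductase Txnrd1 (0.67). In the stress-response list 3 of 16 rose and 5 fell, with Atf3 at 1.12 and the ER protein gene Herpud1 at -1.10. Of 14 p53 targets 4 rose, such as the cell cycle inhibitor Cdkn1a (0.74) and the kinase Plk2 (1.89), and 2 fell, such as Sesn1 (-1.20). For the stress-response and p53 lists the shares over all genes to set beside these counts were 22.5% higher and 22.7% lower.

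The autophagy genes around the deleted enzyme showed small and divided differences. Of 30 conjugation and core genes 5 rose and 7 fell (median -0.09), below the percentages of all genes in the upward direction and close to them in the downward one. Uvrag, a subunit of the Vps34 lipid kinase complex, had 66.8, 68.9, 70.8 and 74.1 CPM in the naive libraries and 97, 94.4, 102.3 and 107 CPM at day 21 (log2 fold change 0.52 ± 0.08 (SE), adjusted p = 7.84e-06), and Becn1 of the same complex rose from 62.8 ± 3.42 to 84.6 ± 6.85 CPM (0.43). Map1lc3a, an LC3 gene, fell from 16.7 ± 3.39 to 8.24 ± 1.62 CPM (-1.02), and the initiating kinase Ulk2 from 237 ± 12.6 to 151 ± 9.22 CPM (-0.65). Among 16 receptor and fusion genes 3 rose and 7 fell, with Calcoco1 at -0.49, and without naive KO 4 only 1 of the 3 increases was called. Sqstm1, whose protein p62 is degraded by autophagy, did not pass. The lysosome list had 6 of 25 higher and 9 lower (median 0.03), beside 22.5% higher and 22.7% lower over all genes. Grn, the lysosomal protein progranulin, had 1414, 1622, 1708 and 1368 CPM in the naive libraries and 2445, 2559.6, 2309 and 2501 CPM at day 21 (log2 fold change 0.68 ± 0.14 (SE), adjusted p = 0.00034). Hexa, a lysosomal hexosaminidase subunit, fell from 605 ± 45.7 to 362 ± 26.9 CPM (-0.74), and the cholesterol exporter Npc1 from 361 ± 30 to 248 ± 12.1 CPM (-0.54).

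Receptors for debris moved in both directions, with 6 of 20 higher and 8 lower, beside 22.5% higher and 22.7% lower over all genes. Cd300lf, a receptor for phosphatidylserine, had 13.4, 20.1, 25.7 and 5.43 CPM in the naive libraries and 409.5, 383, 365 and 377 CPM at day 21 (log2 fold change 4.55 ± 0.60 (SE), adjusted p = 2.56e-06), and Fcgr4, an activating Fc receptor, rose from 15.5 ± 3.27 to 121 ± 10.7 CPM (2.95). The integrin Itgb3 fell from 139 ± 20.6 to 59.4 ± 5.41 CPM (-1.23) and Pros1, a bridge between apoptotic cells and Mertk, from 494 ± 24.9 to 242 ± 23 CPM (-1.03). In the matrix list 8 of 17 genes rose and 7 fell. Tgfbi, a secreted matrix protein, had 167, 199.7, 217 and 69.8 CPM in the naive libraries and 945, 1174, 858 and 998 CPM at day 21 (log2 fold change 2.60 ± 0.51 (SE), adjusted p = 0.000235), and Mmp14, a membrane-bound protease, rose from 97.7 ± 30.6 to 299.9 ± 25.1 CPM (1.62). Col6a3, a collagen VI chain, had 55.2, 48.4, 55.6 and 54 CPM in the naive libraries and 15.9, 18, 19.7 and 20.3 CPM at day 21 and fell (log2 fold change -1.53 ± 0.16 (SE), adjusted p = 9.24e-09), with all 4 naive libraries close together. Lox, which cross-links collagen, fell with overlapping groups, naive KO 4 being low, with 6.82, 7.54, 7.59 and 1.17 CPM in the naive libraries and 0.314, 0.371, 1.35 and 1.04 CPM at day 21 (log2 fold change -2.86 ± 0.48 (SE), adjusted p = 2.27e-05).

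Single marker genes of other cells add to the sums given above. The monocyte and macrophage gene Fn1, which encodes fibronectin, had 141.8, 208.5, 289.6 and 7.77 CPM in the naive libraries and 2027, 2443, 1799 and 2073 CPM at day 21 (log2 fold change 3.68 ± 0.80 (SE), adjusted p = 0.000673), and Ms4a4c rose from 4.26 ± 1.92 to 28 ± 1.71 CPM (2.70). F13a1, listed for monocytes and border macrophages, and Chil3, listed for monocytes, had no overlap between groups but did not pass the test (adjusted p = 0.138 and 0.25). Of 13 monocyte markers 3 were called higher and none lower, beside 22.5% and 22.7% over all genes. Calls of an increase were thus no more frequent than elsewhere. Every day 21 library lay above every naive one for 11 of the 13, and the median log2 fold change was 1.65. Over all genes tested the groups did not overlap for 44.1%, in either direction. Of 11 border macrophage markers 2 rose and 3 fell (median -1). Siglec1, a sialic acid receptor that interferon also raises, rose from 17.1 ± 7.83 to 143 ± 13.6 CPM (3.06) and Ms4a7 from 7.45 ± 3.6 to 25.5 ± 6.25 CPM (1.76). Lyve1, a hyaluronan receptor, fell from 6.75 ± 4.31 to 0.969 ± 0.376 CPM (-2.80) and the chemokine Pf4 from 5.84 ± 4 to 1.77 ± 0.585 CPM (-1.71, a call lost without any 1 of the 7 libraries other than naive KO 4, with an adjusted p of up to 0.154), while Cd209f, the third to fall, had 2.32, 1.84, 3.09 and 0.293 CPM in the naive libraries and 0, 0, 0 and 0 CPM at day 21. The higher sum of this list came mainly from Siglec1 and from F13a1, which had 53.1 ± 35.4 and 185 ± 34.7 CPM. The neutrophil list had 13 of 17 lower (median -4.55), and Retnlg had 68.9, 67.6, 80.8 and 1.17 CPM in the naive libraries and 0.628, 0.742, 3.01 and 1.48 CPM at day 21. Csf3r, the G-CSF receptor that is on the neutrophil list and that microglia also express, had 513 ± 20.5 and 475 ± 38.3 CPM and did not pass. T cell genes were low throughout, with Cd3e at 0.136, 0.773, 0.386 and 0 CPM in the naive libraries and 2.67, 4.27, 4.51 and 4.15 CPM at day 21 (log2 fold change 3.41 ± 0.77 (SE), adjusted p = 0.000706). Ighm, an immunoglobulin heavy chain locus, fell from 293 ± 30.8 to 121 ± 13.7 CPM (-1.28) and Cd79b from 14 ± 2.56 to 4.19 ± 2.28 CPM (-1.74), both even across naive libraries. Of the endothelial list, Pecam1 fell (-2.11) and Flt1 rose (2.08). Of the neural cell markers, Slc1a3 of astrocytes and Mbp of oligodendrocytes did not pass (adjusted p = 0.154 and 0.672). The neuronal kinase gene Camk2a fell from 10.2 to 2.75 CPM (-1.87, adjusted p = 0.0464), a call lost without any 1 of 7 libraries, naive KO 3 being the exception.

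The KO response was set against the WT response (3 day 21 and 4 naive libraries), with which it shares no library. In WT 1320 genes were higher (9.51%) and 1669 lower (12%) at day 21, 21.5% of the genes tested. Of the 13880 genes, 655 (4.72%) responded more positively in KO and 688 (4.96%) more negatively by the interaction contrast of the same edgeR model, 9.68% in all. Called in both responses were 1973 genes in the same direction and 41 in opposite directions. Among homeostatic genes 15 of 24 had a more negative response in KO and 1, Cx3cr1, a more positive one. P2ry12 had a log2 fold change of -2.95 in KO and -1.09 in WT (difference -1.86 ± 0.35, adjusted p = 0.0019), and Gpr34 of -3.33 in KO and -1.06 in WT (difference -2.27 ± 0.33, adjusted p = 0.000202). Naive levels were 2693 ± 165 CPM in KO and 2720.3 ± 502.9 CPM in WT for P2ry12. Trem2 stood at -0.85 in KO and -0.01 in WT (difference -0.84 ± 0.26, adjusted p = 0.038), a difference that kept its call in 9 of 20 alternatives (adjusted p up to 0.0994 with 1 library left out). Of 32 type I interferon genes 6 had a more positive response in KO and none a more negative one, such as Stat2 with 2.66 in KO and 1.78 in WT (difference 0.88 ± 0.21, adjusted p = 0.0118). For Ifnb1 the difference did not pass (adjusted p = 0.161).

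Cell cycle genes were among the lists with most differences, with 18 of 33 more positive in KO and none more negative, and their median was 1.58 in KO and -0.82 in WT. Their summed level was 345 to 522 CPM in naive KO and 1057 to 1298 CPM in day 21 KO libraries. In WT it was 347 to 1155 CPM in naive and 314.4 to 541 CPM in day 21 libraries, so that the naive WT libraries spread widest. Ccne1 stood at 3.58 in KO and 0.45 in WT (difference 3.13 ± 0.70, adjusted p = 0.00706). Monocyte markers gave 9 of 13 more positive in KO, with summed levels in WT of 244.5 to 2088 CPM in naive and 193 to 527 CPM in day 21 libraries. Fn1 alone had means of 237 CPM in naive and 283 CPM in day 21 WT libraries. Neutrophil markers summed to 2076 to 17444 CPM in naive and 700.2 to 725 CPM in day 21 WT libraries, and 16 of 17 fell in WT. Csf3r alone made up 694 of the mean 715 CPM in day 21 WT libraries. The part of monocytes and neutrophils in the cell cycle and myeloid gene differences was not tested. Chil3 and Slfn4, a myeloid gene induced by interferon, had wide spreads in naive WT: in WT they went from 280.6 ± 282 to 7.28 ± 10.5 CPM and from 49.8 ± 41.1 to 0.34 ± 0.201 CPM (SD), and in KO they did not pass. Slc28a2, Fpr2 and Prtn3 also fell in WT and did not pass in KO, with differences (KO minus WT) of 8.02, 6.85 and 7.15. Ms4a8a stood at 4.54 in KO and -3.47 in WT (difference 8 ± 2.01, adjusted p = 0.0149). Day 21 WT means were under 1 CPM for Slfn4, Slc28a2, Fpr2, Prtn3 and Ms4a8a, so the sizes of their fitted differences depend on the prior count of the model. Msr1 stood at 3.57 in KO and -0.06 in WT (difference 3.63 ± 0.88, adjusted p = 0.0137), Apoc2 at 4.76 in KO and -0.13 in WT (difference 4.89 ± 0.96, adjusted p = 0.00347) and Cd300lf at 4.55 in KO and 1.30 in WT (difference 3.25 ± 0.81, adjusted p = 0.0159). The differences of Chil3, Slfn4, Fpr2, Prtn3, Ms4a8a, Msr1 and Cd300lf were not called without day 21 WT 2 or without day 21 WT 3, and those of Chil3, Slfn4, Prtn3, Ms4a8a and Cd300lf also not without naive WT 3. With 1 library left out their adjusted p reached 0.116, 0.0893, 0.0745, 0.115, 0.0622, 0.0543 and 0.0639, and Chil3 and Prtn3 kept the call in 7 and 8 of 20 alternatives. Tgfbi stood at 2.60 in KO and -0.61 in WT (difference 3.22 ± 0.74, adjusted p = 0.0101), and glycolysis genes had 6 of 20 more positive in KO, such as Ldha with 0.85 in KO and -0.26 in WT (difference 1.12 ± 0.23, adjusted p = 0.00433).

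Of 17 matrix genes 5 had a more positive and 4 a more negative response in KO. Lox stood at -2.86 in KO and 1.81 in WT (difference -4.67 ± 0.67, adjusted p = 0.000152) and Col6a3 at -1.53 in KO and 0.58 in WT (difference -2.11 ± 0.23, adjusted p = 3.38e-06), and naive KO levels of both (5.78 and 53.3 CPM) were above naive WT levels (1.59 and 28.9 CPM). Kcnj12 stood at -5.27 in KO and 0.74 in WT (difference -6 ± 1.17, adjusted p = 0.00246), Adcy8 at -4.52 in KO and -0.75 in WT (difference -3.76 ± 0.57, adjusted p = 0.000224) and Dlg5, a scaffold protein, at -2.82 in KO and 0.41 in WT (difference -3.23 ± 0.51, adjusted p = 0.000454). Cxcl13, a B cell attractant, stood at -0.22 in KO and 4.18 in WT (difference -4.40 ± 1.06, adjusted p = 0.0131). Naive levels in KO and WT were 6.87 ± 4 and 0.633 ± 0.284 CPM for Kcnj12, 14.8 ± 5.96 and 3.5 ± 1.81 CPM for Dlg5 and 9.2 ± 9.03 and 0.768 ± 1.19 CPM for Cxcl13, with higher means in KO. In EAE scores the 3 WT day 21 libraries had 2, 3 and 3 and the KO libraries 3, 3, 3 and 2.75. The day 21 groups also differed in sex-linked genes. Xist was 70.1 to 773.7 CPM in KO and 1457 to 2045 CPM in WT. Summed Y-linked genes were 160 to 218 CPM in KO and 48.8 to 63.8 CPM in WT. The part of sex in the differences from WT was not tested. The counts of differences from WT rest on few WT libraries. Without day 21 WT 3 the 4.72% and 4.96% of genes tested became 1.21% and 2.38%. Without day 21 WT 2 they became 1.39% and 2.54%, and without naive WT 3 1.54% and 2.71%. Without day 21 KO 2 the more positive share was 2.79%.

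**Figure D5:**
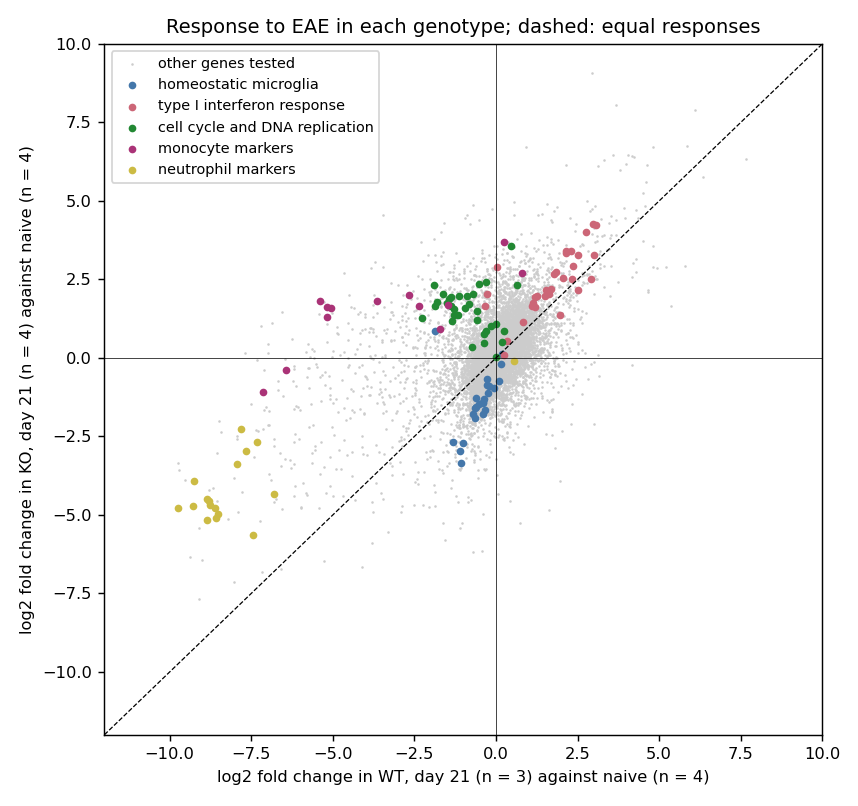
Log2 fold change at day 21 of EAE in KO (y axis, 4 against 4 libraries) and in WT (x axis, 3 against 4 libraries) for every gene tested; colours mark 5 gene lists and the dashed line equal responses. Homeostatic genes other than Cx3cr1 lie mostly below the line, cell cycle genes and monocyte markers above it, and type I interferon genes mostly at or above it.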

How the data were processed

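RNA was sequenced from 30 microglia libraries in 8 groups, made with a stranded total RNA kit, per the labels' protocols. The authors deposited raw counts per gene (46078 genes, 32 columns, of which 2 were not used). Per the submitters' processing notes, CASAVA, bcl2fastq and STAR were used with GRCm38. Which tool counted reads, and with which strand setting, is not given in the sources used here. A deposited sample table holds an EAE score and an RNA integrity number per library. Count columns were joined to titles through the plate well in that table, an inference checked for all 30 libraries.

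After filterByExpr (count 10, total 15) 13880 genes were left, and libraries were scaled by TMM. Day 21 KO was tested against naive KO with edgeR 4.0.16 (quasi-likelihood F test, robust, 1 mean per group, 22 residual degrees of freedom, R 4.3.3) and called at a Benjamini-Hochberg adjusted p under 0.05. CPM scale counts to the TMM-adjusted library size. Single measures were compared by exact permutation. In simulated data with 200 changed genes of 13235, the procedure recovered 79% of them and made 8 false calls. Far fewer genes changed there than were called here, so it does not test a setting with this many differences. Intervals on ratios from 1 to 3 counts cover counting error only.

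The comparison and the gene lists were chosen with earlier results of these data known. Named genes were Atg7 and Cx3cr1, the 10 highest and 10 lowest by log2 fold change above 5 CPM with groups that did not overlap, the 6 most abundant each way with an absolute log2 fold change of at least 1, up to 4 called members of each process list in each direction, the 2 most abundant and up to 2 called members of each marker list, and the 6 largest differences from WT each way. Some were left out, and some are not reported here. Named outside this rule, after their values were seen, were list members that did not pass or that stand alone in a count (Mertk, Crybb1, Irf9, B2m, Sqstm1, Tyrobp, Ifngr2, Jak1, Jak2, Ms4a7, Lyve1, Pf4, Cd209f, C1q chains). Alternatives were DESeq2 1.42.0, its size factors in edgeR, no filter, only the compared groups, the i5 index as a block and leaving out each library.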

Additional observations from a re-analysis of the deposited data

Results flagged for a closer look

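In 9.81% of the groups of 4 libraries examined, 1 library lay farther from the other 3 than Dixon's 95% limit allows. Independent, normally distributed values would give about 1 in 20. These values come from the same 8 libraries and are not independent, and 3 values of 0 beside any other value always pass the limit. The share therefore does not measure an excess over chance. Naive KO 4 was the library that stood apart in 17 of the flagged groups. It was low for the genes Kcnj12 (0.88), Ngp (21.3), Lcn2 (8.65), Ccl6 (67.2), Ulk2 (218), Plin2 (16.6), Herpud1 (161), Lox (1.17), Retnlg (1.17) and Slfn4 (0.293) and high for Cx3cr1 (292), Mx1 (22.9), Atf3 (176) and Camk2a (17.5), all in CPM. Its marker sums stood apart for summed neutrophil markers (646), summed monocyte markers (40.6) and summed neuron markers (30.2) CPM. The other libraries that stood apart, with CPM in parentheses, were day 21 KO 1 for Prg2 (0.157), E2f1 (9.58) and summed erythroid markers (0.785), day 21 KO 3 for Gbp6 (20.6), Irgm1 (226), Ccl6 (70.2), Pros1 (276.2) and Jak1 (281), day 21 KO 4 for Atg7 (36.9) and Gbp7 (369.8), naive KO 2 for Gbp2b (0.193) and naive KO 3 for Serpina3f (0.515), Ms4a8a (0.901) and Jak2 (90.8). Gene values under 1 CPM here rest on a few counts.

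The day 21 response differed between KO and WT for 64 of the genes named here, by the interaction contrast (edgeR, adjusted p under 0.05), given as log2 fold change in KO minus that in WT. It was at least 3 more positive in KO for Slc28a2 (8.02), Ms4a8a (8), Slfn4 (7.43), Chil3 (7.23), Prtn3 (7.15), Fpr2 (6.85), F13a1 (5.44), Apoc2 (4.89), Msr1 (3.63), Ms4a7 (3.43), Cd300lf (3.25), Tgfbi (3.22) and Ccne1 (3.13). Smaller positive differences were those of Cx3cr1 (2.72), Bub1b (2.71), Siglec1 (2.32), Cd36 (2.12), Plin2 (1.77), E2f1 (1.67), Ldha (1.12), Tpi1 (1.06), Gbp7 (1.03), Txnrd1 (1), Hk3 (0.96), Rnf213 (0.92), Stat2 (0.88), Ccl6 (0.87), Irgm1 (0.85), Ifi30 (0.72), Herc6 (0.62), Irf1 (0.61), Gbp3 (0.57) and Uvrag (0.40). It was at least 2 more negative for Kcnj12 (-6), Lox (-4.67), Cxcl13 (-4.40), Adcy8 (-3.76), Camk2a (-3.53), Dlg5 (-3.23), Gp9 (-2.86), Gpr34 (-2.27) and Col6a3 (-2.11). Smaller negative differences were those of P2ry12 (-1.86), Slc2a5 (-1.71), Cd79b (-1.61), Cst3 (-1.56), Fcrls (-1.35), Il6 (-1.35), Mgll (-1.19), Sparc (-1.08), Timp2 (-1.05), Ighm (-1.01), Selplg (-0.95), Tgfbr1 (-0.95), Smad3 (-0.93), Vsir (-0.87), Ifngr1 (-0.84), Trem2 (-0.84), Herpud1 (-0.81), Itgb3 (-0.77), Pecam1 (-0.73), Csf3r (-0.66), Npc1 (-0.63) and Mylip (-0.58). Of these 64 differences, 30 kept their direction and call under every alternative run.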

How the results depend on the processing

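Between 2706 and 3349 genes were higher and between 2765 and 3196 lower at day 21 under the alternatives run, within 1.5 times the 3123 and 3149 reported. Of the 6272 calls, 6177 were shared with DESeq2's Wald test, 6166 with DESeq2 size factors, 5320 with no filter, 5752 with the compared groups alone and 5428 to 5672 when 1 library was left out. Of the genes named with values, 12 were not called, Camk2a, Ccl6 and Pf4 lost the call in some alternatives, and the others kept call and direction in every alternative run. Atg7 passed with DESeq2's Wald test (adjusted p = 0.0325) and without naive KO 3 (adjusted p = 0.011), and Cx3cr1 without naive KO 4 or day 21 KO 4 (adjusted p = 0.0335 and 0.0259).

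The differences from WT moved more, given here as a percentage of the genes tested. The more positive share was 1% with no filter, where 30273 genes were tested, 10.3% with the compared groups alone and 7.05% with DESeq2, and it ran from 1.21 to 6.19% over single libraries left out. The more negative share was 1.79% with no filter, 8.78% with the compared groups alone and 6.16% with DESeq2, and it ran from 2.38 to 5.63% over single libraries left out. The cause was not tested. Single measures past 0.05 numbered 0 to 10 over single libraries left out. Directions turned for genes not called in KO: over single libraries left out Mbp ran from -0.31 to 0.05, Prtn3 from -0.10 to 0.42 and Cxcl13 from -0.55 to 0.54 on the log2 scale, with the turn without naive KO 4 for Mbp (0.05) and Prtn3 (-0.10) and without naive KO 3 for Cxcl13 (0.54).

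The labels give no replicate numbers. With the i5 index as a replicate block, 6107 of the 6272 calls were shared, the more positive share was 2.98%, and Prtn3 turned to -0.05. Libraries with the same index correlated at -0.06, 0.13, -0.04 and 0.01 in their deviations, so the index was not taken to pair them. Depth limits genes with few counts, such as Nos2 and Prg2.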

Other observations

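KO libraries from day 35 (n = 4) place the day 21 levels in time. They are set against the same naive KO libraries as day 21, so both comparisons share their controls, and no test of day 21 against day 35 is given. Nos2 had 0.0563 ± 0.0663, 42.6 ± 10.1 and 0.34 ± 0.202 CPM (mean ± SD) in naive, day 21 and day 35 libraries, and Arg1 had 1.61 ± 1.71, 187 ± 33.7 and 7.5 ± 9.04 CPM. Neither passed at day 35 (edgeR, adjusted p = 0.452 and 0.329). Tgfbi had 163.3 ± 65.7, 994 ± 133 and 123 ± 43.5 CPM (day 35 against naive -0.41, adjusted p = 0.579). Ifnb1, by contrast, had 0.0885 ± 0.121, 9.7 ± 4.02 and 12.8 ± 1.87 CPM (adjusted p = 8.46e-07).

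The interferon-linked genes differed in their day 35 level. Gbp4 had 2.49 ± 1.35, 219 ± 14.8 and 25.5 ± 4.43 CPM (day 35 against naive 3.34, adjusted p = 0.000197), and Stat2 had 60.1 ± 4.26, 379 ± 16 and 124.96 ± 16 CPM (day 35 against naive 1.06, adjusted p = 1.64e-05). Cxcl10, the T cell attractant, had 9.28 ± 3.47, 139 ± 9.66 and 88.8 ± 10.1 CPM (day 35 against naive 3.26, adjusted p = 9.74e-07). All 3 were above naive at day 35, with Cxcl10 the closest to its day 21 mean. P2ry12 had 2693 ± 165, 349 ± 20.5 and 1064 ± 199.9 CPM (day 35 against naive -1.34, adjusted p = 0.000362) and Gpr34 had 1146 ± 30.5, 113.8 ± 11.7 and 556 ± 109 CPM (day 35 against naive -1.04, adjusted p = 0.00194), both between the naive and the day 21 means. Trem2 had 727 ± 52.1, 403 ± 45.5 and 691 ± 124.3 CPM (day 35 against naive -0.07, adjusted p = 0.803). Apoe had 3042 ± 1671, 12018 ± 1211 and 24819 ± 9359.6 CPM (day 35 against naive 3.03, adjusted p = 0.000539), with a wide spread at day 35.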
